A study of Mus musculus with 23 samples.

Results

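Kcnj6 encodes GIRK2, a subunit of the G protein-gated inwardly rectifying potassium channels, and it lies on the segment of chromosome 16 that Dp16 mice carry in an extra copy. Its levels are described here together with those of 9 genes whose products form, activate, restrain or sort the same channel. The 10 genes are Kcnj6, Kcnj3, Kcnj9, Gabbr1, Gabbr2, Kctd12, Kctd16, Gnb5, Rgs7 and Snx27. They were taken by gene symbol and make up 10 of the 19064 genes with values, out of 21785 genes listed. Messenger RNA was sequenced from mouse hippocampus in 23 libraries of 4 genotypes. Of these, 5 are labelled Dp16;D-KO/K-KO and are called the double-KO libraries, 6 are labelled Dp16/D-KO, 7 Dp16 and 5 WT. Dp16 stands for Dp(16)1Yey, a duplication of the mouse segment that matches much of human chromosome 21. D-KO and K-KO stand for a knockout allele of Dyrk1a and of Kcnj6, by which the title of the series says that the dosage of each gene was returned to normal. Both kinds of KO library therefore also carry the duplication, and WT carries neither the duplication nor a knockout allele. The labels do not say which exons the knockout alleles lack, and a value for a whole gene cannot tell transcripts of such an allele from those of an intact one. Of the libraries, 10 are labelled total RNA, with mice of the C57BL/6 strain aged 2 to 3 months, and 13 are labelled polyA RNA, with a background more than 90% C57/B6 and no age given. Messenger RNA was captured on oligo(dT) beads in both sets. The sets hold 2 and 3 double-KO libraries, 3 and 3 Dp16/D-KO, 3 and 4 Dp16, and 2 and 3 WT libraries. Strain label and protocol differ between the sets together and cannot be told apart. Whether age differs as well is not known, since it is given only for the total RNA set. The labels do not say that each library came from a different animal, so the p-values measure the spread between these libraries, which may be partly technical.

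GIRK channels are tetramers. In hippocampal neurons the subunits GIRK1, GIRK2 and GIRK3, encoded by Kcnj3, Kcnj6 and Kcnj9, combine, and the channel opens when the βγ part of an inhibitory G protein binds to it. The GABA-B receptor, made of the subunits encoded by Gabbr1 and Gabbr2, is a main activator and produces a slow inhibitory current. Its response is shaped by KCTD proteins bound to the receptor and is shortened by RGS7, which with its partner Gβ5 speeds the return of the G protein to rest. The sorting protein SNX27 binds GIRK2 and GIRK3 and directs channels through endosomes.

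Values are RPKM, reads per kilobase of gene scaled to library size, as deposited by the authors, so levels of different genes are set side by side per length. RPKM summed to between 353904 and 373054 in a library. No read counts are given. Steps between the lowest values gave estimates of 14.65 to 17.4 M reads. At these estimates 43.2% to 58.7% of low values came within 0.15 of a whole read, where 30% would by chance, so depth is known only roughly. In 2 WT libraries the letter for sex goes against the data. The one lettered F1 had 12.65 RPKM of Ddx3y, a gene of the Y chromosome, and the one lettered M3 had 0.01 RPKM. WT M3 is labelled polyA RNA and had 30.45 RPKM of Snx27, where the other polyA RNA libraries had at most 27.31 and the total RNA libraries at least 28.01. WT F1 is labelled total RNA and had 33.68 RPKM of Snx27, the highest of its own set and above all polyA RNA libraries. Whether these libraries were exchanged was not tested, and if they were, values within a set and those adjusted for the RNA label would rest on wrong labels as well. Results of the 10 genes in Dp16 against WT, and those of Kcnj6 and Gnb5 in the other groups against WT, are therefore also given without both. Markers of hippocampal neurons were present, with all 7 above 10.3 RPKM in each library. Summed markers of choroid plexus, a tissue next to the hippocampus, ran from 26.9 to 3875 RPKM in double-KO, 14.1 to 3199 in Dp16/D-KO, 32.7 to 3656 in Dp16 and 17.9 to 2435 in WT libraries. Their part in the results was not tested.

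The 3 channel subunits are close relatives, and the total RNA libraries were read in 50-base single-end reads, so the likeness of their coding sequences bears on whether a read could be given to the wrong gene. A window of 50 bases in the stretch that codes for the pore is given here, 5′ to 3′, from the GENCODE annotation of the same genome build as the alignment, mm10. It is the closest window of Kcnj9 and Kcnj3, which differ in it at 5 bases, with the best match of the Kcnj9 window in Kcnj6. Capitals mark the 12 positions at which the 3 genes are not all the same. The windows are chr16:94832772-94832821 on the minus strand for Kcnj6, chr2:55437597-55437646 on the plus strand for Kcnj3 and chr1:172326179-172326228 on the minus strand for Kcnj9, each within 1 coding exon.
Kcnj6: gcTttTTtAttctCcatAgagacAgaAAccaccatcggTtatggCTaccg
Kcnj3: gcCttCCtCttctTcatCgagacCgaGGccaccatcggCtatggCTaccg
Kcnj9: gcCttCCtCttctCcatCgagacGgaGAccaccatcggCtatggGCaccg
In this window Kcnj3 and Kcnj9 each differed from Kcnj6 at 10 bases. Over the whole coding sequences, the longest exact stretch was 17 bases between Kcnj6 and Kcnj9 and 14 between Kcnj6 and Kcnj3. The closest 50-base windows of Kcnj6 lie outside the window printed here. They differed at 5 bases from Kcnj9 and at 7 from Kcnj3, and 0 windows differed at 2 or fewer. Overlap with genes on the opposite strand was larger for some genes. Of the 50-base stretches of their transcripts, 61.3% for Kctd12 also occur in Gm26778, 29.3% for Kcnj3 in Gm26794, 7.55% for Kctd16 in AC098707.1, 6.21% for Gnb5 in Gm19531 and 4.34% for Kcnj6 in Gm41505. For the other 5 genes the share was 2.87% or less. The sources used here do not say whether strand was used in counting, so reads of such pairs cannot be told apart and the levels of Kctd12 and Kcnj3 are uncertain to that extent.

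In every group Gabbr1 had the highest RPKM of the 10 genes, then Gabbr2, then Gnb5, and Kctd16 had the lowest. Gabbr1 averaged 154 ± 10.3 RPKM in double-KO (SD, n = 5), 151 ± 10.6 in Dp16/D-KO (n = 6), 154 ± 11.3 in Dp16 (n = 7) and 144 ± 8.39 in WT libraries (n = 5). Gabbr1 lay above Gabbr2, and Gabbr2 above Gnb5, without overlap between libraries of a group. From the fourth to the ninth place the neighbours overlapped in the 3 groups that carry the duplication. Kcnj6 was 8th in double-KO, 8th in Dp16/D-KO and 7th in Dp16 libraries, among Snx27, Rgs7 and Kcnj9. In WT it was 9th, and all its WT values lay below all those of Kcnj9 and above all those of Kctd16. Each of the 10 genes passed the filter of a mean of at least 0.5 RPKM that set which 13971 genes were tested, and Kcnj6 had a higher mean than 76.4% of these.

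Kcnj6 (chromosome 16, 94748683 to 94997696 in mm10) was higher in each group that carries the duplication than in WT. It measured 24.89, 23.1, 27.13, 26.01 and 26.96 RPKM in the double-KO libraries M1, M2, F1, F2 and M3. The lowest, median and highest values were 23.4, 26.0 and 27.6 RPKM in the 6 Dp16/D-KO libraries and 23.16, 25.06 and 31.89 RPKM in the 7 Dp16 libraries. The WT libraries M2, F1, M3, M4 and F2 had 19.06, 18.19, 18.59, 20.36 and 15.28 RPKM. All 18 libraries with the duplication thus lay above the highest WT library, while the 3 groups that carry it overlapped each other. The share of all tested genes that separate in this way was not computed, so the separation is only a description.

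**Figure D1:**
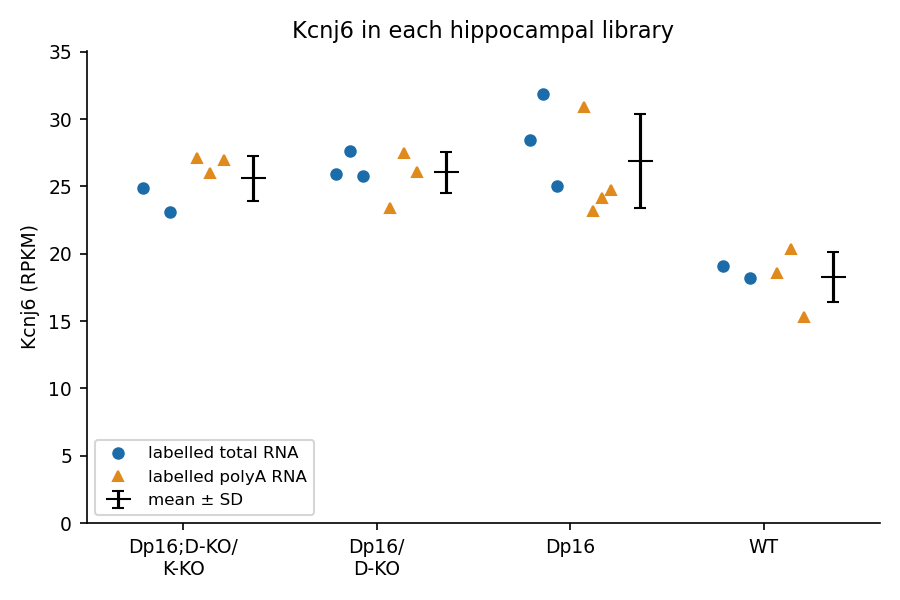
RPKM of Kcnj6 in each library, by genotype on the horizontal axis, with circles for libraries labelled total RNA, triangles for polyA RNA, and the group mean with its SD beside them. The WT libraries sit between 15.28 and 20.36 RPKM, below every library of the other 3 groups. How often all tested genes separate in this way was not computed.

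Group means were 25.6 ± 1.67 RPKM in double-KO, 26.0 ± 1.52 in Dp16/D-KO, 26.9 ± 3.48 in Dp16 and 18.3 ± 1.87 in WT libraries (SD). On the scale of log2(RPKM + 0.1), with all groups, the RNA label and the letter for sex in 1 limma model, Dp16 exceeded WT by 0.55 (SE 0.08, 95% interval 0.38 to 0.72, adjusted p = 0.000193), a 1.46-fold difference. The difference from WT was 0.51 in Dp16/D-KO (0.34 to 0.68, adjusted p = 0.000881, 1.43-fold) and 0.49 in double-KO libraries (0.31 to 0.67, adjusted p = 0.00287, 1.40-fold). The interval of each held 0.58, the log2 ratio of 3 copies to 2. The 3 comparisons share the WT libraries and are not independent. Without the WT libraries F1 and M3 the differences were 0.50 in double-KO (adjusted p = 0.0244), 0.52 in Dp16/D-KO (adjusted p = 0.00982) and 0.56 in Dp16 (adjusted p = 0.0037). Within the sets, Dp16 against WT was 0.61 in total RNA (adjusted p = 0.0297) and 0.53 in polyA RNA (adjusted p = 0.0422). Dp16/D-KO against WT did not pass within either set (0.51, adjusted p = 0.0757 and 0.55, adjusted p = 0.0545), and double-KO against WT passed within polyA RNA (0.61, adjusted p = 0.0309) but not total RNA (0.39, adjusted p = 0.18). The authors' deposited table gives log2 differences of 0.50, 0.52 and 0.59 for double-KO, Dp16/D-KO and Dp16 against WT, with adjusted p-values of 0.0002344, 2.7e-05 and 1.014e-07.

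Kcnj6 is also the gene that the label K-KO names. A value for the whole gene cannot check that label, because transcripts of a knockout allele may be counted in it. Kcnj6 differed by -0.06 between double-KO and Dp16 libraries (SE 0.08, 95% interval -0.23 to 0.10, adjusted p = 0.822) and by -0.02 between double-KO and Dp16/D-KO libraries (-0.20 to 0.15, adjusted p = 0.966). Dp16/D-KO and Dp16 libraries, which differ by label in Dyrk1a only, had a Kcnj6 difference of -0.04 (-0.20 to 0.12, adjusted p = 0.842). A step of 3 copies to 2 is 0.58 on this scale, larger than the distance of any of these lower bounds below 0. This concerns RNA counted over the whole gene and does not give the number of intact copies. Dyrk1a, the kinase gene that the label D-KO names, likewise differed by 0.02 between double-KO and Dp16 and by -0.01 between Dp16/D-KO and Dp16 libraries. Within total RNA the Kcnj6 difference was -0.22 for double-KO against Dp16 (SE 0.09, adjusted p = 0.429), -0.12 for double-KO against Dp16/D-KO (adjusted p = 0.67) and -0.10 for Dp16/D-KO against Dp16 (adjusted p = 0.711). Within polyA RNA the same differences were 0.08 (SE 0.10, adjusted p = 0.896), 0.06 (adjusted p = 0.996) and 0.02 (adjusted p = 0.956), so the direction was not the same in the 2 sets and the difference between the sets was not tested. A lower level of either gene did not pass in the libraries labelled with its knockout, and the genotypes named here are those of the labels. Whether transcripts of the knockout alleles were counted was not tested.

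Within the duplicated segment Kcnj6 stood near the middle. Of the 109 segment genes with values, 84 were tested. Of the 83 other than Kcnj6, 66 were higher in Dp16 than in WT at an adjusted p under 0.05 and 0 were lower, with a median log2 difference of 0.52. By size of the difference Kcnj6 was 39th of 84. The nearest tested gene, Dyrk1a, ends 50.0 kb away and was higher by 0.54 in double-KO, 0.51 in Dp16/D-KO and 0.52 in Dp16 libraries, each against WT.

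**Figure D2:**
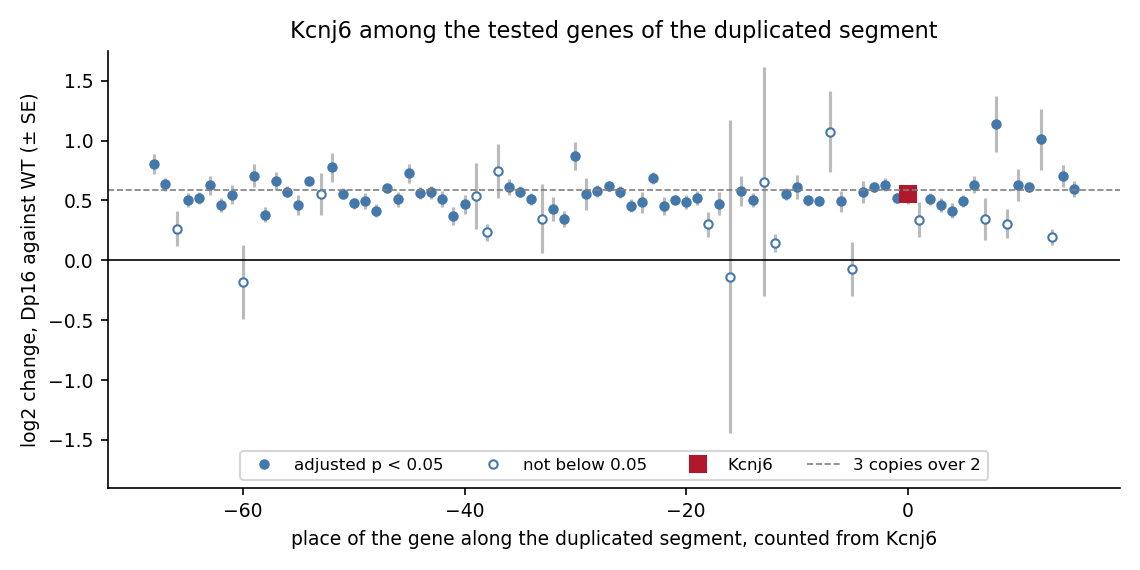
Log2 difference of Dp16 against WT with its SE for the 84 tested segment genes, placed by their order along the segment counted from Kcnj6, with filled points for an adjusted p under 0.05. Kcnj6, the square, lies at 0.55, close to the segment median of 0.52 and to the dashed line for 3 copies over 2.

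On the side of Dyrk1a, the next genes were Vps26c, a part of an endosomal sorting complex, Ttc3, a ubiquitin ligase gene, and Pigp, which acts in the making of the GPI anchor. In Dp16 against WT these were higher by 0.63, 0.61 and 0.57. Ripply3, a transcriptional repressor gene and the fifth neighbour, had -0.07 and did not pass. On the other side Erg, a transcription factor gene of blood vessel cells, had 0.34 and did not pass (adjusted p = 0.3), while Ets2, Brwd1, Psmg1 and Hmgn1 were higher by 0.51, 0.46, 0.41 and 0.50. Of the 10 nearest neighbours, Ripply3 and Erg were thus the ones that did not pass, and the same held in Dp16/D-KO (-0.04 and 0.19) and double-KO libraries (0.28 and 0.41).

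Kcnj3 and Kcnj9, the partner subunits, lie outside the segment, on chromosome 2 (55360120 to 55598145) and chromosome 1 (172319165 to 172336216), and neither passed in any of the 6 comparisons. Kcnj3 encodes GIRK1, which depends on a partner such as GIRK2 to reach the cell surface. It measured 27.88, 27.4, 32.26, 33.7 and 33.9 RPKM in the double-KO libraries M1, M2, F1, F2 and M3. The lowest, median and highest values were 29.33, 32.3 and 34.32 RPKM in Dp16/D-KO and 27.72, 35.15 and 40.79 RPKM in Dp16 libraries. WT libraries M2, F1, M3, M4 and F2 had 32.85, 31.84, 31.47, 40.1 and 33.73 RPKM, so the groups overlapped, with WT M4 well above the other WT libraries. The difference from WT was -0.13 in double-KO (adjusted p = 0.524), -0.06 in Dp16/D-KO (adjusted p = 0.725) and 0.05 in Dp16 libraries (95% interval -0.07 to 0.18, adjusted p = 0.755). Between double-KO and Dp16 libraries Kcnj3 had the smallest p of the 10 genes, with -0.18, and did not pass after adjustment over all genes (SE 0.06, -0.31 to -0.06, adjusted p = 0.27).

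Kcnj9 encodes GIRK3, the subunit that carries a signal for sorting through endosomes. It had 27.18, 26.14, 18.82, 23.77 and 20.66 RPKM in the double-KO libraries, and lowest, median and highest values of 18.55, 23.1 and 27.17 in Dp16/D-KO and 19.21, 23.61 and 29.49 in Dp16 libraries. WT libraries had 24.28, 26.3, 24.92, 23.93 and 25.83 RPKM, a narrower range inside that of the other groups. The difference of Dp16 from WT was -0.12 (-0.29 to 0.04, adjusted p = 0.503). In the 3 groups that carry the duplication the Kcnj9 mean was lower in polyA RNA. Means in total and polyA RNA were 26.7 and 21.1 RPKM in double-KO, 26.3 and 20.3 in Dp16/D-KO, 26.3 and 21.1 in Dp16, and 25.3 and 24.9 RPKM in WT libraries. The difference of Dp16 from WT was 0.05 in total RNA and -0.25 in polyA RNA, and the test of the difference between the sets gave -0.30 (adjusted p = 0.822).

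**Figure D3:**
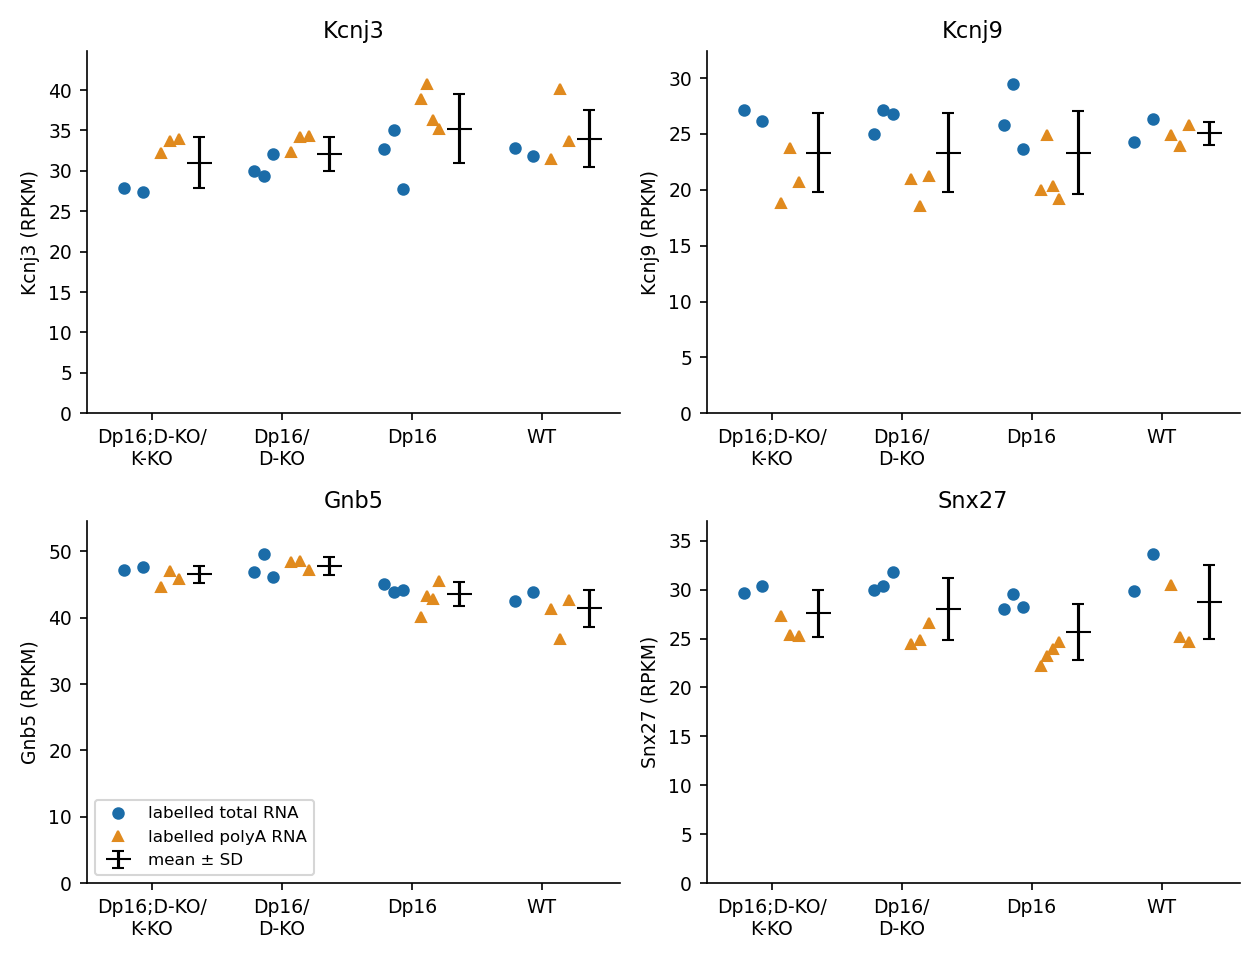
RPKM of Kcnj3, Kcnj9, Gnb5 and Snx27 in each library, by genotype on the horizontal axes, with circles for total RNA, triangles for polyA RNA, and the group mean with its SD. For Gnb5 the Dp16/D-KO and double-KO libraries all lie above the highest WT library at 43.94 RPKM, whereas for the other 3 genes the groups overlap. The share of all tested genes that separate in this way was not computed.

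Kcnj6 was higher while its partners did not pass, and the make-up of the subunit RNAs differed. Kcnj6 made up 32.0 ± 1.82% of the summed RPKM of Kcnj3, Kcnj6 and Kcnj9 in double-KO, 32.0 ± 1.44% in Dp16/D-KO, 31.5 ± 2.78% in Dp16 and 23.6 ± 1.86% in WT libraries (SD). The lowest of the 18 libraries with the duplication had 26.1%, a Dp16 library, and the highest WT library had 25.0%. The Kcnj3 RPKM was 1.21, 1.24 and 1.33 times that of Kcnj6 in double-KO, Dp16/D-KO and Dp16 libraries, against 1.87 times in WT. For Kcnj9 the ratios were 0.920, 0.896 and 0.873, against 1.39 in WT. Over both sets the Kcnj9 level was thus below that of Kcnj6 on average in the 3 groups and above it in WT. In total RNA alone the Kcnj9 and Kcnj6 means were 26.7 and 24.0 RPKM in double-KO, 26.3 and 26.4 in Dp16/D-KO, and 26.3 and 28.5 in Dp16 libraries. In polyA RNA they were 21.1 and 26.7, 20.3 and 25.7, and 21.1 and 25.7 RPKM. The order in double-KO libraries thus depended on the set. The 3 subunits summed to 80.0 ± 2.69, 81.4 ± 2.88 and 85.5 ± 7.02 RPKM in these groups, against 77.3 ± 4.0 RPKM in WT. The shares follow from the Kcnj6 difference and are given as a description, with no test of their own.

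The receptor subunits Gabbr1 (chromosome 17, 37045792 to 37078701) and Gabbr2 (chromosome 4, 46663898 to 46991714) did not pass in any comparison. GABBR1 binds GABA and GABBR2 couples to the G protein. Gabbr1 ran from 142 to 169 RPKM in double-KO, 139 to 163 in Dp16/D-KO, 142 to 172 in Dp16 and 133 to 155 in WT libraries, with overlap in each case. Its difference from WT was 0.10 in double-KO (adjusted p = 0.32), 0.09 in Dp16/D-KO (adjusted p = 0.242) and 0.10 in Dp16 libraries (SE 0.03, adjusted p = 0.15). These are small differences of a gene whose residual SD, 0.04 on the log2 scale, was larger than that of 0.336% of tested genes. Gabbr2 averaged 65.3 ± 8.05 RPKM in double-KO, 65.0 ± 5.92 in Dp16/D-KO, 67.2 ± 6.6 in Dp16 and 63.7 ± 7.78 in WT libraries, and Dp16 differed from WT by 0.09 (-0.02 to 0.20, adjusted p = 0.472). The Gabbr1 RPKM was 2.37, 2.33 and 2.29 times that of Gabbr2 in double-KO, Dp16/D-KO and Dp16 libraries, against 2.27 times in WT.

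The KCTD genes, whose proteins bind GABBR2 and change the speed of the receptor's response, did not pass either. Kctd12 (chromosome 14, 102976581 to 102982655) averaged 33.0 ± 2.78, 32.7 ± 2.09 and 32.7 ± 2.51 RPKM in double-KO, Dp16/D-KO and Dp16 libraries, against 32.5 ± 2.42 RPKM in WT, and the difference of Dp16 from WT was 0.00 (-0.12 to 0.13, adjusted p = 0.983). Kctd16 (chromosome 18, 40256223 to 40549798) was the lowest and the most variable of the 10, with a residual SD of 0.24. It averaged 4.72 ± 1.27, 4.2 ± 0.953 and 4.48 ± 0.773 RPKM in the same 3 groups, against 3.90 ± 0.536 RPKM in WT. The difference of Dp16 from WT was 0.19, with an interval of -0.09 to 0.47 that is wide at this level (adjusted p = 0.557).

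Gnb5 encodes Gβ5, the G protein β subunit that pairs with RGS7, and lies on chromosome 9 (75306288 to 75345923). It was higher in Dp16/D-KO than in WT. Its values were 47.27, 47.68, 44.68, 47.09 and 45.87 RPKM in the double-KO libraries M1, M2, F1, F2 and M3. The lowest, median and highest were 46.18, 47.8 and 49.67 RPKM in Dp16/D-KO and 40.13, 43.91 and 45.51 RPKM in Dp16 libraries. WT libraries M2, F1, M3, M4 and F2 had 42.45, 43.94, 41.34, 36.77 and 42.73 RPKM. All double-KO and Dp16/D-KO libraries lay above the highest WT library, and all Dp16/D-KO libraries above the highest Dp16 library. How often groups separate in this way over all tested genes was not computed, for Gnb5 or for Kcnj6, so the separation is only a description. Gnb5 was higher than in WT by 0.20 in Dp16/D-KO libraries (SE 0.04, 0.12 to 0.28, adjusted p = 0.00891). The difference from WT was 0.17 in double-KO (0.08 to 0.25, adjusted p = 0.0585) and 0.07 in Dp16 libraries (-0.01 to 0.15, adjusted p = 0.416), and neither passed. Against Dp16 the difference was 0.13 in Dp16/D-KO (0.05 to 0.20, adjusted p = 0.132) and 0.10 in double-KO libraries (adjusted p = 0.342), and neither passed.

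Without the WT libraries F1 and M3 the Gnb5 difference of double-KO from WT was 0.19 and did not pass (adjusted p = 0.0853). The Gnb5 difference of Dp16/D-KO from WT was then 0.22 (adjusted p = 0.0168). It kept its direction but did not pass with only these 2 genotypes in the model (0.20, adjusted p = 0.154), in total RNA (0.14, adjusted p = 0.395) or in polyA RNA (0.23, adjusted p = 0.217), and the double-KO difference passed when the Dp16/D-KO library F1 was left out (0.17, adjusted p = 0.0456). The authors' deposited table gives Gnb5 differences from WT of 0.16 in double-KO (adjusted p = 0.04231), 0.21 in Dp16/D-KO (adjusted p = 0.000113) and 0.09 in Dp16 libraries (adjusted p = 0.623). Sums of markers of other cells are given beside these differences. The 8 markers of oligodendrocytes and myelin summed to 2309 to 3131 RPKM in double-KO, 1250 to 2607 in Dp16/D-KO, 2172 to 3183 in Dp16 and 2330 to 3232 RPKM in WT libraries, and the 8 of dentate granule cells to 70.5 to 86.6, 71.0 to 104, 72.5 to 89.7 and, in WT, 89.7 to 104 RPKM. The 6 of CA1 neurons summed to 201 to 239, 215 to 257, 203 to 234 and, in WT, 175 to 208 RPKM, and the 8 of CA2 and CA3 neurons to 294 to 325, 255 to 312, 270 to 414 and, in WT, 229 to 275 RPKM. Within these lists, in double-KO, Dp16/D-KO and Dp16 against WT, 0, 1 and 0 myelin markers were called lower, 1, 1 and 1 dentate markers lower, 1, 2 and 1 CA1 markers higher, and 1, 0 and 1 CA2 and CA3 markers higher. Of all tested genes, 0.601%, 0.852% and 0.852% were higher and 0.15%, 0.429% and 0.594% lower in these comparisons. The CA2 and CA3 marker called was Pcp4, which itself lies on the duplicated segment and is part of the sum of that list. Sums of the interneuron, astrocyte, microglia, thalamus, striatum and cortex lists overlapped between all groups. Their part in the Gnb5 and Kcnj6 differences was not tested, and in RNA of whole tissue fewer cells of a type cannot be told apart from less RNA per cell.

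Rgs7 (chromosome 1, 175059076 to 175492813), the partner of Gβ5, did not pass. It averaged 27.8 ± 1.99 RPKM in double-KO, 28.5 ± 1.70 in Dp16/D-KO, 30.5 ± 4.21 in Dp16 and 27.2 ± 2.40 in WT libraries, and the Dp16 library M4 had the highest value, 38.43 RPKM. The difference from WT was 0.03 in double-KO, 0.09 in Dp16/D-KO and 0.16 in Dp16 libraries (0.04 to 0.28, adjusted p = 0.188). Between double-KO and Dp16 libraries it was -0.13 (adjusted p = 0.388). In double-KO against Dp16/D-KO, where no gene of the 10 had an unadjusted p under 0.05, the smallest belonged to Kcnj3 with -0.07 (adjusted p = 0.818) and Rgs7 with -0.06 (adjusted p = 0.839).

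Snx27 lies on chromosome 3 (94463530 to 94588082). It measured 29.61, 30.39, 27.31, 25.33 and 25.24 RPKM in the double-KO libraries M1, M2, F1, F2 and M3. The lowest, median and highest values were 24.43, 28.3 and 31.84 RPKM in Dp16/D-KO and 22.16, 24.68 and 29.54 RPKM in Dp16 libraries, and WT libraries M2, F1, M3, M4 and F2 had 29.82, 33.68, 30.45, 25.17 and 24.61 RPKM. The groups overlapped, and the sets differed more than the groups, with a mean of 30.2 RPKM and a range of 28.01 to 33.68 in total RNA, and a mean of 25.2 and a range of 22.16 to 30.45 in polyA RNA. The highest of the polyA RNA libraries was WT M3, one of the 2 whose letter goes against its data. Dp16 differed from WT by -0.17 (SE 0.05, -0.27 to -0.07, adjusted p = 0.0987), the smallest p after that of Kcnj6. The difference was -0.08 without the WT libraries F1 and M3 (adjusted p = 0.555), and it passed without the WT library F2 (-0.20, adjusted p = 0.0449). Against Dp16, Snx27 differed by 0.11 in double-KO (adjusted p = 0.382) and by 0.10 in Dp16/D-KO libraries (adjusted p = 0.295).

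Counted together, 1 of the 10 genes, Kcnj6, was higher in double-KO than in WT at an adjusted p under 0.05, where 0.601% of all tested genes were higher and 0.15% lower. In Dp16/D-KO against WT 2 of the 10, Kcnj6 and Gnb5, were higher, with a background of 0.852% higher and 0.429% lower. In Dp16 against WT 1 of the 10, Kcnj6, was higher, with a background of 0.852% higher and 0.594% lower. None of the 10 was lower in these comparisons. In Dp16/D-KO against Dp16 limma called 0 of the 10, where it called 0.0644% of all genes higher and 0.0787% lower. At an unadjusted p under 0.05 were 2 of the 10, with Snx27 only 1706th by p among all tested genes. In double-KO against Dp16 limma called 0 of the 10, where it called 0.0358% of all genes higher and 0% lower. At an unadjusted p under 0.05 were 4 of the 10, with Rgs7 only 1084th by p. In double-KO against Dp16/D-KO limma called 0, with 0 at an unadjusted p under 0.05, and called 0% of all genes higher and 0% lower. These shares are at an adjusted p under 0.05. They are no background for the counts at an unadjusted p, for which the share of all genes is not given. The authors' deposited table called 0 of the 10 in these last 3 comparisons as well. The median log2 difference from WT over the 10 genes was 0.03 in double-KO, 0.08 in Dp16/D-KO and 0.08 in Dp16 libraries, beside 0.00, -0.01 and -0.01 over all tested genes. Without Kcnj6 the 9 other genes ran from -0.17 for Snx27 to 0.19 for Kctd16 in Dp16 against WT. Without the WT libraries F1 and M3 the same numbers of the 10 were called, and the other differences of Dp16 from WT were 0.01 for Kcnj3, -0.13 for Kcnj9, 0.11 for Gabbr1, 0.08 for Gabbr2, 0.09 for Gnb5, 0.12 for Rgs7, 0.06 for Kctd12 and 0.15 for Kctd16, and none of these passed.

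**Figure D4:**
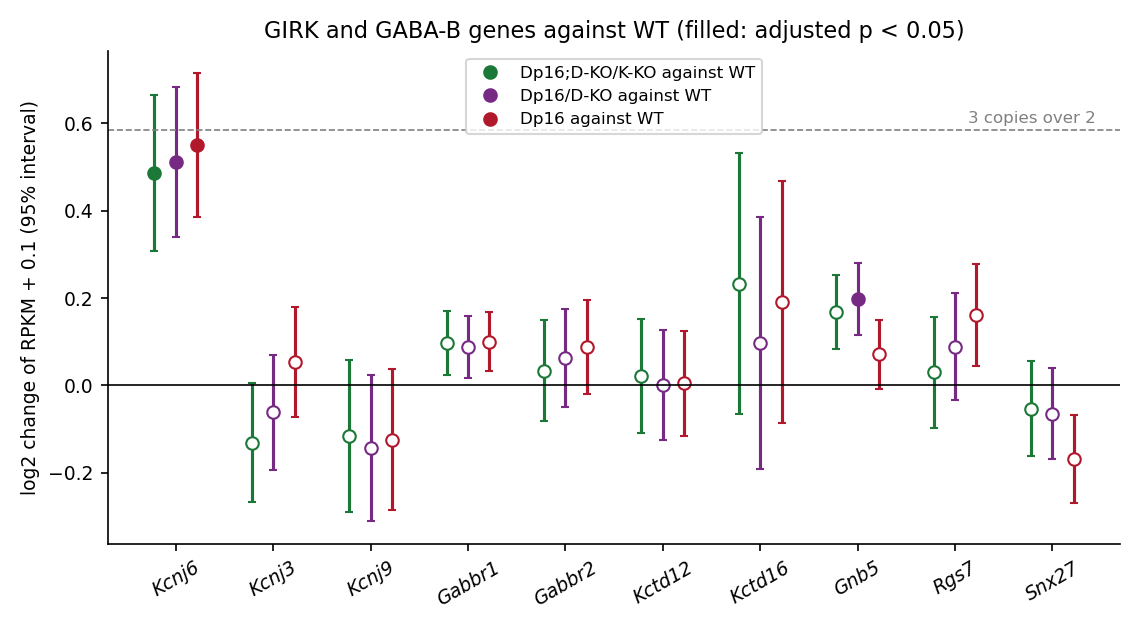
Log2 difference from WT of each of the 10 genes with its 95% interval, in double-KO, Dp16/D-KO and Dp16 libraries, with filled points for an adjusted p under 0.05 and a dashed line at 0.58. Kcnj6 lies near that line in all 3 comparisons, Gnb5 is filled in Dp16/D-KO alone, and the other 8 genes have open points.

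Among 64 further genes of the same pathway, 56 were tested. They comprise 9 tested of 12 other inward rectifier subunits, 17 of 18 G protein subunits, 7 of 9 RGS proteins and anchors, 5 of 5 proteins associated with the GABA-B receptor, 14 of 16 other receptors that open GIRK channels and 4 of 4 retromer parts. App passed in all 3 comparisons with WT and 0 other genes did, in either direction, so that 1 of 56 was higher in each. Of all tested genes 0.601% were higher in double-KO and 0.852% in Dp16/D-KO and in Dp16 libraries. A count of 1 gene is too small to be set against these shares. App encodes the amyloid precursor protein, which binds GABBR1, and it lies on the duplicated segment. App was higher by 0.55 in double-KO (adjusted p = 2.4e-09), 0.59 in Dp16/D-KO (adjusted p = 3.11e-10) and 0.66 in Dp16 libraries (adjusted p = 1.31e-11), each against WT. The next smallest p in Dp16 against WT was that of Htr1a, which encodes a serotonin receptor that opens GIRK channels, with -0.22 (adjusted p = 0.113). The median difference of Dp16 from WT over the 56 genes was 0.03, and 33 of the 56 were above 0, beside a median of -0.01 and 45.4% above 0 over all tested genes. In the 3 comparisons among groups that carry the duplication 0 of the 56 passed, where at most 0.0787% of all genes did in either direction.

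The effect of Dp16 on the 10 genes was also compared between libraries by set and by letter. For Kcnj6 the difference of Dp16 from WT was 0.52 in polyA RNA and 0.59 in total RNA, which gave a difference between sets of -0.07 (SE 0.16, adjusted p = 0.963). By letter it was 0.46 in M and 0.69 in F libraries, a difference of -0.23 (adjusted p = 0.864). By limma 0 of the 10 genes and 0 of all genes passed in either test, and 0 of the 10 had an unadjusted p under 0.05. With the letter against the data in 2 of the 5 WT libraries, the test by letter is weak. Without those libraries the Kcnj6 difference of Dp16 from WT was 0.44 in M and 0.79 in F libraries, a difference of -0.35. F2 was then the only WT library lettered F, and its 15.28 RPKM of Kcnj6 was the lowest of all libraries. By set, M2 was then the only WT library labelled total RNA. Tests that rest on so few WT libraries are not given.

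Beyond the group differences, Kcnj6 varied between libraries with a residual SD of 0.14 on the log2 scale, larger than that of 57.7% of tested genes, where the median gene had 0.13. What was left after genotype, RNA label and letter was compared between Kcnj6 and each of the 9 other genes over the 23 libraries, with 100000 permutations and adjustment over the 9 pairs. These permutations treat the residuals as free values although 6 terms of the model were removed, so their p-values are too small. Gabbr2 had the highest correlation of the 9, r = 0.58 (permutation p = 0.00449, adjusted p = 0.0404) and rho = 0.57 (adjusted p = 0.0395). Among all 13970 other tested genes, ordered by the same r from the highest, Gabbr2 was only 164th and Kcnj3 513th. Kcnj3 had r = 0.45 (permutation p = 0.0311, adjusted p = 0.0934) and rho = 0.54 (adjusted p = 0.0395). Gnb5 had r = -0.47 (permutation p = 0.0228, adjusted p = 0.0934) and rho = -0.35 (adjusted p = 0.209), and Kcnj9 had r = -0.14 (adjusted p = 0.609). With the removed terms counted, as a partial correlation on 16 degrees of freedom, 0 of the 9 passed, and Gabbr2 had an adjusted p of 0.107, Kcnj3 one of 0.175 and Gnb5 one of 0.175.

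Leaving out the 2 libraries farthest from the median, Dp16 F1 and WT F2, gave r = 0.53 for Gabbr2, which then did not pass (adjusted permutation p = 0.113). For Kcnj3 it gave r = 0.29, and the r of Kcnj3 had not passed with all libraries either. Gabbr2 also had no adjusted p under 0.05 in 9 of the 23 fits without 1 library, among them that without Dp16 F1 (r = 0.48). Kcnj3 had such a p without Dp16 M4 (r = 0.69) or WT M3 (r = 0.54). With the model fitted again within each set, Gabbr2 had r = 0.40 in total RNA (n = 10, adjusted permutation p = 0.377) and r = 0.37 in polyA RNA (n = 13, adjusted permutation p = 0.476). Kcnj9 went opposite ways, with r = 0.94 in total RNA (adjusted permutation p = 0.00099) and r = -0.71 in polyA RNA (adjusted permutation p = 0.0553). Few degrees of freedom are left within a set, so these p-values are too small, and the difference between the sets was not tested. The libraries share depth and tissue make-up across genes, and these correlations are given as measurements.

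**Figure D5:**
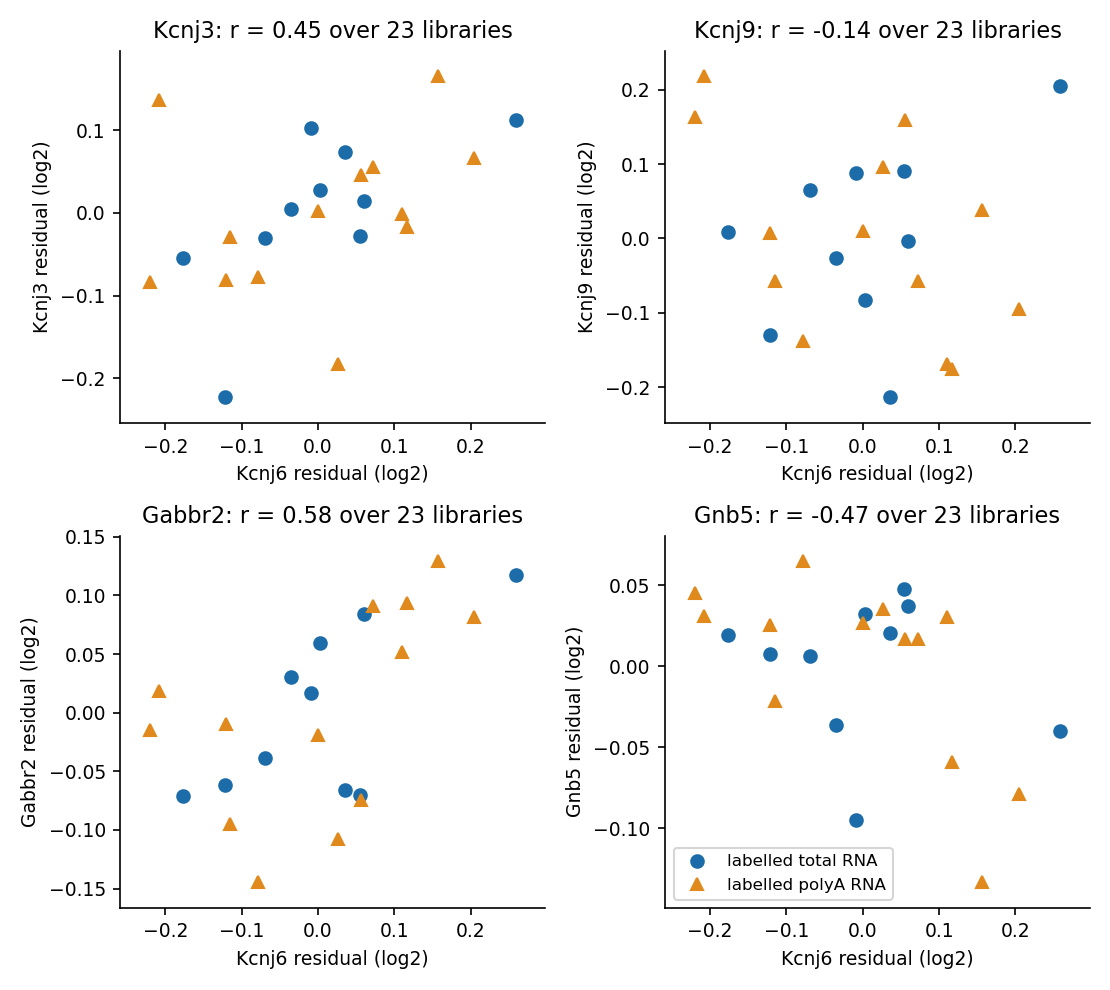
Residuals on the log2 scale of Kcnj3, Kcnj9, Gabbr2 and Gnb5 against those of Kcnj6 after genotype, RNA label and letter, 1 point per library, with circles for total RNA and triangles for polyA RNA. Over the 23 libraries r was 0.58 for Gabbr2, 0.45 for Kcnj3, -0.47 for Gnb5 and -0.14 for Kcnj9.

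Of all 13970 other tested genes, those whose log2 values followed Kcnj6 most closely over the 23 libraries were Synj1 (r = 0.91), Dscam (0.87), Son (0.86), Nrip1 (0.86) and Ttc3 (0.86). Synj1 encodes a lipid phosphatase of synaptic vesicle recycling and Dscam an adhesion molecule of neurons. Of the 20 highest, 19 lie on the duplicated segment, which holds 0.601% of tested genes, so these values mostly restate the difference between genotypes. With the genotype, RNA label and letter removed, the highest were Nr3c2 (0.85), the mineralocorticoid receptor gene, Tnr (0.81), which encodes a matrix protein, Cacna1e (0.81), which encodes a calcium channel, Ankrd52 (0.79) and Raver2 (0.78). Of the 20 highest after removal, 0 lie on the segment.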

How the data were processed

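RNA was measured by sequencing in 23 mouse hippocampus libraries. The deposited table holds RPKM made by the authors, 1 value per gene and library. Alignment used HISAT and the build mm10, per the submitters' processing notes, while the counting step is not given in the sources at hand. Log2 fold changes and adjusted p-values of the authors were deposited beside the RPKM and are quoted only where named. The test ran on log2(RPKM + 0.1) for the 13971 genes whose mean RPKM was at least 0.5, and it was made with limma 3.58.1 in R 4.3.3. The model held the 4 genotypes, the RNA label and the letter for sex, with an intensity trend, and gave two-sided tests with Benjamini-Hochberg adjustment over all tested genes in each of 6 comparisons, called at an adjusted p under 0.05. Standard deviations, shares, permutations and figures were made with Python 3.11.15. The fit was checked on simulated data. The sequences came from the GENCODE transcripts and annotation of the same build, and 50-base stretches were compared on both strands. The genes named are the 10, with Kcnj6 and any called gene in all comparisons and the 2 with the smallest p in each. They are also the called pathway genes and the 2 with the smallest p in Dp16 against WT, the 5 nearest tested neighbours on each side, and the 5 genes most like Kcnj6 by each measure, without predicted genes. The 10 genes, the lists and the naming rule were chosen with earlier results of these data known. Alternatives were pseudocounts of 0.01 and 1, no filter and a mean of at least 1, rescaling by median ratios, models without RNA label, letter or trend, fits of 2 genotypes or 1 set, leaving out the WT libraries F1 and M3, a replicate block, and leaving out each library.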

Additional observations from a re-analysis of the deposited data

Results flagged for a closer look

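Kcnj3 in the WT library M4 stood apart from the other 4 WT libraries, at 40.1 RPKM with the nearest of them at 33.73 RPKM. The gap was 0.738 of the range of the 5 WT values. Without that library the difference of Dp16 from WT in Kcnj3 was 0.10 (adjusted p = 0.444 by limma) in place of 0.05. Of 40 sets of values, 10 genes in 4 groups, this was the 1 with such a gap, and chance gives about 1 in 20.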

How the results depend on the processing

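Kcnj6 in Dp16 against WT passed under all 13 alternatives other than leaving out single libraries (0.53 to 0.61, adjusted p 0.000127 to 0.0422) and in all 23 fits without 1 library (0.49 to 0.59). Of 434 alternatives for the main results, 420 gave the same result, as did 637 of 684 for the others. For a difference or a correlation this means the same direction and side of the threshold. Many of the main results are counts of the 10 genes called, for which it means an equal count. In the comparisons among groups that carry the duplication that count was 0 in every alternative. In Dp16/D-KO against WT the count of the 10 genes called was 1 with only those 2 genotypes, 0 in total RNA and 0 in polyA RNA, in place of 2. In double-KO against WT it was 0 in total RNA, in place of 1. Leaving out 1 library gave 1 to 2 in Dp16 against WT and 1 to 2 in double-KO against WT. Kcnj6 against WT in total RNA was 0.39 in double-KO and 0.51 in Dp16/D-KO, and in polyA RNA 0.55 in Dp16/D-KO, none of which passed. In polyA RNA alone its small differences changed sign, to 0.085 in double-KO against Dp16, 0.024 in Dp16/D-KO against Dp16 and 0.060 in double-KO against Dp16/D-KO. In total RNA alone they were -0.22, -0.10 and -0.12, further below 0 than with all libraries. Leaving out 1 library gave -0.073 to 0.022 in Dp16/D-KO against Dp16 and -0.058 to 0.025 in double-KO against Dp16/D-KO. The fits of 1 set hold fewer libraries, and the cause was not tested further.

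In total RNA alone Dp16 against WT was -0.012 for Kcnj3, 0.074 for Kcnj9 and -0.035 for Kctd12, and Kctd12 ran from -0.033 to 0.037 without 1 library. Correlations with Kcnj6 that changed sign were those of Kcnj9 (0.94 in total RNA, -0.47 to 0.032 without 1 library), Gabbr1 (-0.43 in total RNA), Gnb5 (0.18 in total RNA), Rgs7 (-0.26 in polyA RNA, -0.0056 without the 2 farthest libraries, -0.074 to 0.52 without 1 library) and Snx27 (-0.52 in total RNA, -0.021 in polyA RNA, -0.18 without the 2 farthest, -0.070 to 0.27 without 1 library). The Gabbr2 correlation ran from 0.48 to 0.66 without 1 library with an adjusted permutation p under 0.05 in 14 of 23 such fits, not without Dp16 F1, F2, M2 or M3, WT M4, Dp16/D-KO F3, or double-KO M1, F1 or M3. Correlations with such a p without 1 library and not with all were those of Kcnj3 (0.69 without Dp16 M4, 0.54 without WT M3), Rgs7 (0.52 without Dp16 M4), Gnb5 (-0.54 without Dp16/D-KO F1) and Kctd12 (0.59 without double-KO M2). The p-values of these permutations are too small. Counting the removed terms left the Gabbr2 value at 0.58 with an adjusted p of 0.107. That test, and the alternatives for Gnb5 in the KO groups and for Kcnj3 in double-KO against Dp16, were chosen after seeing the data. Rescaling libraries shifted the median of all genes by at most 0.02. It gave 132 higher and 55 lower genes in Dp16 against WT in place of 119 and 83, 4 and 10 in Dp16/D-KO against Dp16 in place of 9 and 11, and 5 and 5 in double-KO against Dp16 in place of 5 and 0.

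Replicate numbers were treated as not pairing the libraries in the main model. Residuals of same-numbered libraries of a set correlated by -0.044 on average, with 6 of 26 pairs above 0.1. Other pairs correlated by -0.112 on average, with 3 of 26 above 0.1. Same-numbered libraries were thus somewhat more alike, and whether the numbers pair libraries was not settled by these values. With the replicate block Kcnj6 against WT was 0.48 in double-KO (adjusted p = 0.0218), 0.51 in Dp16/D-KO and 0.55 in Dp16 (adjusted p = 0.000762), the same number of the 10 genes was called in each comparison, and Gnb5 in Dp16/D-KO was 0.18 (adjusted p = 0.047). Over all genes the block gave 75 calls in double-KO against WT in place of 105, 148 in Dp16/D-KO against WT in place of 179, 199 in Dp16 against WT in place of 202, 4 in double-KO against Dp16 in place of 5, and 0 in Dp16/D-KO against Dp16 in place of 20.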
